A study of Mus musculus with 16 samples.

Results

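The genes described here are 37 mouse genes of the proton pump that acidifies lysosomes, of the cathepsins and of other lysosomal proteins. They were chosen by name with earlier results of these data known, so their counts beside those of all genes are a description only. Every array probe whose RefSeq accession belongs to 1 of them was taken, which gave 43 probes among 55681. Of the 20660 genes named on the array, 19022 gave enough signal to be tested, among them 36 of the 37. The exception was Ctse (cathepsin E, an aspartic protease), whose probe was well above background on 2 of 16 arrays, so no level of it is compared.

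RNA was measured in eyes of nm3342 mice, a mutant line studied for serous retinal detachment (fluid under the retina), and of wild-type mice. Each of the 4 groups held 4 single-colour arrays: mutants at 1 month, wild type at 1 month, mutants at 1 year and wild type at 1 year. The labels give these ages as P30 and P365. All samples carry the labels C57Bl/6J for the strain background and male for sex, and each was taken from both retinas together with the retinal pigment epithelium (RPE), the pigmented layer behind the photoreceptors. The labels name neither the mutated gene nor the animals, so the genotype labels had no targeted gene as a check, and p-values measure the spread between samples. In such whole tissue, fewer cells of a type and less RNA per cell cannot be told apart.

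The vacuolar ATPase (V-ATPase) uses ATP to pump protons into lysosomes and other compartments: its V1 sector, in the cytosol, hydrolyses ATP, and its V0 sector, in the membrane, carries the protons. Cathepsins are proteases that work mostly in the acid lumen of lysosomes. The RPE relies on them because it digests the photoreceptor outer segment tips shed each day, and microglia and macrophages, the phagocytes of the tissue, are rich in them as well.

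Many lysosomal genes are known targets of the transcription factor TFEB and its relatives, which bind sequences built around the motif CACGTG. That motif was searched in the promoter windows of the RefSeq table (assembly GRCm38.p6, 250 bases before to 50 after each annotated start). CACGTG is its own reverse complement, so 1 search covers both strands, and the longer TCACGTGA contains it. Windows were listed for 27 of the 37 genes. CACGTG was in the window of 9 of these 27 genes (33.3%), against 8.09% of all 27025 genes in the table. TCACGTGA was in 5 of 27 (18.5%), against 1.12% of all genes. Of 15 CACGTG matches in these windows, 12 lay within 100 bases of the start. The stretches around matches are shown for the genes whose tests are described further on, each read 5′ to 3′ on the gene's own strand with CACGTG in capitals.
Lamp1, 4 matches: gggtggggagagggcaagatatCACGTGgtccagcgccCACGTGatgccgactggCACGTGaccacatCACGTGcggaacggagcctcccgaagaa
Ctsd, first of 2 stretches: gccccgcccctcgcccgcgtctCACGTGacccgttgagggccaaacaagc
Ctsd, second stretch: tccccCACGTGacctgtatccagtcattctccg
Ctsl: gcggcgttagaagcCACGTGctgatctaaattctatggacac
Ctsa, 2 matches: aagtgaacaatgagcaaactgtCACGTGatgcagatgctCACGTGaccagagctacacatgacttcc
Ctsf: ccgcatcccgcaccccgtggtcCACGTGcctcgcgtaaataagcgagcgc
Atp6v0b, 2 matches: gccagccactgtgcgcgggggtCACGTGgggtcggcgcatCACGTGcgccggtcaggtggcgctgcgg
Atp6v0d1: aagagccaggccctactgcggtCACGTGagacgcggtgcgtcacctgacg
Atp6v0e: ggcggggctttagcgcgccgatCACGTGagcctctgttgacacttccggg
Atp6v1a: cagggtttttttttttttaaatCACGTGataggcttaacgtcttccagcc

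The Lamp1 stretch lies at chr8:13159078-13159173 on the plus strand, and its 4 matches start between 61 and 15 bases before the transcription start. The others lie at chr7:142387898-142387947 and chr7:142388045-142388077 (Ctsd, minus strand), chr13:64370729-64370770 (Ctsl, minus), chr2:164833739-164833805 (Ctsa, plus), chr19:4855064-4855113 (Ctsf, plus), chr4:117887320-117887387 (Atp6v0b, minus), chr8:105566040-105566089 (Atp6v0d1, minus), chr17:26676377-26676426 (Atp6v0e, plus) and chr16:44139363-44139412 (Atp6v1a, minus). TCACGTGA stands in the first stretch of Ctsd and in those of Ctsa, Atp6v0d1, Atp6v0e and Atp6v1a. Each of these windows spans the start site, so its end overlaps the gene. A match is a description of the letters, not a bound site. The window of Ctss, the cathepsin gene with the most significant rise with age, had no match, and neither had those of Ctsz and Hexa.

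All levels below are log2 signals relative to the array's 75th percentile, so that 0 is that percentile, and levels of different probes are not set against each other. Between 82.1% and 89.6% of spots on an array were well above background. Sex-linked genes did not match the male label on 3 arrays, replicates 2 and 3 of the young mutants and replicate 1 of the old mutants. Array 1 of the wild-type 1-month group was the lowest of its group for 33 of the 36 genes tested, against 40.1% of all genes, and for 18 of 19 V-ATPase genes. Array 4 of the mutant 1-month group was the lowest of its group for 17 of 19 V-ATPase genes, against 44.2% of all genes, but for 4 of 12 cathepsins. On that mutant array the lens marker list had its group's highest mean (6.89, against 1.90 to 4.98 on the other 3), as had the erythrocyte list (2.88 against -1.10 to -0.33), and the rod list had its lowest (6.48 against 6.73 to 6.78). On the wild-type array the RPE list was at 2.16, against 2.47 to 2.60 on the other 3, and the melanin list at 1.53, against 1.94 to 2.25. Their part in the results was not tested. Results are given below without each of these arrays where that changed a call.

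**Figure D1:**
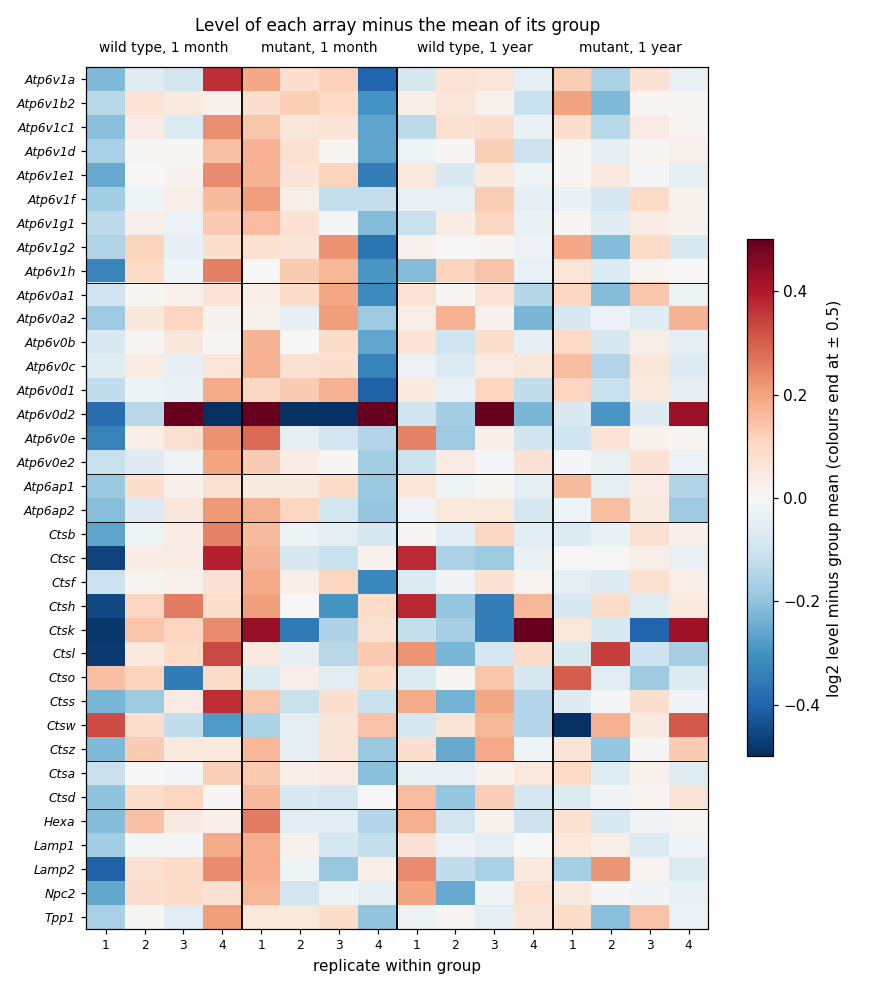
Each row is 1 of the 36 genes tested, each column 1 array (4 groups of 4 replicates), and the colour is the log2 level minus the mean of that gene in the array's group, from blue (lower) to red (higher), with colours ending at ± 0.5. Horizontal lines separate V1, V0, accessory subunits, cysteine cathepsins, other cathepsins and other lysosomal genes; wild-type 1-month array 1 is blue in nearly all rows, and mutant 1-month array 4 in nearly all V-ATPase rows.

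The first comparison asked how these genes differed between 1 month and 1 year in wild-type mice. Of the 36 genes tested, 11 rose and 1 fell at an adjusted p under 0.05 (limma, Benjamini-Hochberg over 19022 genes), against 7.31% and 5.05% of all genes, 12.4% in either direction. The rises were in Ctss, Ctsz, Ctsh, Ctsb, Ctsc, Ctsd, Hexa, Npc2, Lamp1, Atp6v0e and Atp6v0d2, and the fall was in Ctsf. Atp6v0d2 passed the signal filter only through the 1-year groups, so its calls in either genotype are no evidence of a difference between ages. Cathepsins, Hexa and Npc2, proteins of the lysosome's lumen, made up 8 of the 11 rises. Of the 19 V-ATPase genes 17 were not called, which is near the share of all genes, 12.4% of which were called. The change was positive in 22 of the 36, against 44.7% of all genes, with a median of 0.07 against -0.03, and 15 of 36 had an unadjusted p under 0.05, against 26.4% of all genes. The median rested on wild-type 1-month replicate 1, without which the change was positive in 18 of 36 genes and the median was -0.01, and on slide 2 alone it was -0.08, with 17 of 36 positive. In mutants 6 genes rose (Ctss, Ctsz, Ctsh, Ctsb, Ctsd and Atp6v0d2) and 2 fell (Ctsf and Atp6v0b), against 3.77% and 2.93% of all genes, 6.7% in either direction. There the change was positive in 16 of 36, against 40.2% of all genes, with a median of -0.04 against -0.05, and 11 had an unadjusted p under 0.05, against 21% of all genes. That median was 0.02 without mutant 1-month replicate 1 and 0.04 on slide 1 alone.

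**Figure D2:**
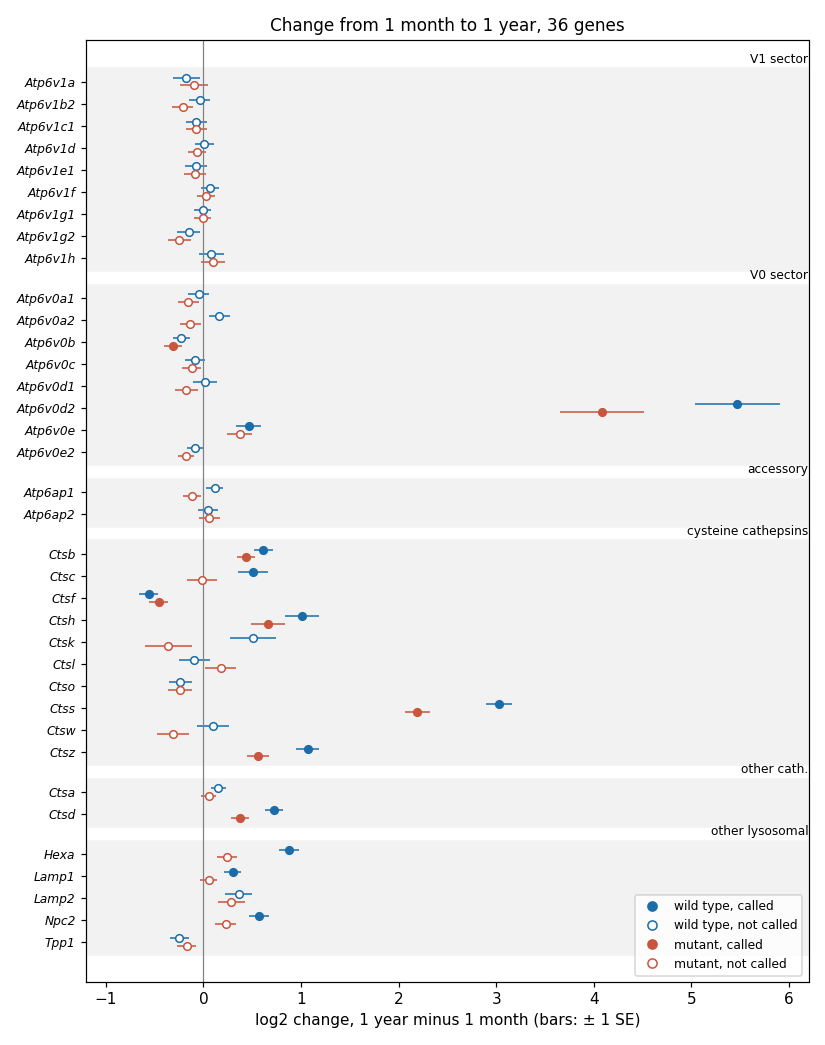
Log2 change from 1 month to 1 year for each of the 36 genes, in wild type (blue) and mutants (red), 4 arrays per group, with bars of 1 standard error; filled points passed an adjusted p of 0.05. All 9 V1 genes lie near 0, while Ctss (3.03 and 2.19) lies far to the right. Atp6v0d2 is plotted at its fitted values, which have no exact size because the gene was below background on all 8 arrays at 1 month.

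Among the V1 genes none was called in any comparison, and none reached an unadjusted p under 0.05 in any. Of all genes, 12.4% were called with age in wild type and 6.7% in mutants. Between genotypes 2.72% were called at 1 month and 0.857% at 1 year, and 0.421% for the difference between the genotype effects. For 9 genes, no calls is near these shares. The 9 V1 genes encode the subunits A and B2 (Atp6v1a, Atp6v1b2), the stalk subunits C1, D, E1, F, G1 and G2, and H, which regulates the assembled pump. Their changes with age ran from -0.18 to 0.08 in wild type and from -0.25 to 0.10 in mutants. Atp6v1g2, a G subunit typical of neurons, had the lowest change in mutants, -0.25 ± 0.12 (adjusted p = 0.253). A second probe of Atp6v1a gave -0.15 in wild type and -0.10 in mutants, next to -0.18 and -0.10 for the probe used. Without mutant 1-month replicate 4, whose V-ATPase levels were low, Atp6v1b2 and Atp6v1g2 were called lower in ageing mutants.

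The V0 genes differed from each other. Atp6v0d2 encodes an isoform of the d subunit known from osteoclasts and macrophages. Its levels at 1 month were -8.23, -7.99, -6.55 and -8.63 in wild type and -6.26, -8.03, -7.68 and -6.50 in mutants, and none of these 8 values was well above background. At 1 year they were -2.48, -2.55, -1.88 and -2.61 in wild type and -3.11, -3.33, -3.10 and -2.61 in mutants, all 8 well above background. The gene was thus at least 16-fold higher at 1 year in wild type and at least 9.54-fold higher in mutants. For these bounds the 1-month level is set, array by array, to the dimmest signal still scored above background or to the probe's own if higher. The adjusted p-values (limma, 1.66e-06 and 5.21e-05) belong to fitted changes against readings below background, not to these bounds. With normexp background correction, which shrinks dim signals, the changes were 1.69 and 1.24 on the log2 scale, still called. The gene passed the signal filter only through the 1-year groups, so a difference between ages was built into its selection, and its calls are no evidence of one. The 35 genes well above background on all 16 arrays leave it out. Of these, 10 rose and 1 fell in wild type, and 5 rose and 2 fell in mutants. A second probe, equally below background at 1 month, gave bounds of at least 7.27-fold and 4.04-fold. By contrast Atp6v0d1, the d isoform of most tissues, changed by 0.02 ± 0.12 in wild type and -0.17 ± 0.12 in mutants (adjusted p = 0.953 and 0.436), and was called lower in mutants without mutant 1-month replicate 4.

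Atp6v0e encodes a small membrane subunit of the pump. It was at 2.35, 2.72, 2.76 and 2.91 in wild type at 1 month and at 3.40, 2.97, 3.18 and 3.05 at 1 year, groups that do not overlap (0.46 ± 0.13, adjusted p = 0.0289). In mutants it was at 3.13, 2.80, 2.75 and 2.70 and then at 3.12, 3.29, 3.24 and 3.23 (0.37 ± 0.13, adjusted p = 0.105). The wild-type call was lost without wild-type 1-month replicates 1 or 2 or 1-year replicates 1 or 3 (largest adjusted p = 0.101). Atp6v0b, a proteolipid of the proton-carrying ring, was at 4.10, 3.93, 4.02 and 3.67 in mutants at 1 month and at 3.72, 3.54, 3.65 and 3.57 at 1 year. Mutant array 4 alone overlapped the 1-year values, and the fall was at the edge of the threshold (-0.31 ± 0.09, adjusted p = 0.0498). Of the 8 fits that left out 1 mutant array, only the fit without that array kept the call (largest adjusted p = 0.149). In wild type Atp6v0b went from 3.82, 3.91, 3.95 and 3.90 to 3.74, 3.57, 3.75 and 3.62 (-0.23 ± 0.09, adjusted p = 0.119). Of the 2 accessory subunits, Atp6ap1 and Atp6ap2 (the (pro)renin receptor), neither was called with age, and their changes ran from -0.12 to 0.12.

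Cysteine cathepsins held the largest rises after Atp6v0d2. Of 10 tested, 5 rose and 1 fell in wild type, against 7.31% and 5.05% of all genes. In mutants 4 rose and 1 fell, against 3.77% and 2.93% of all genes. Ctss encodes cathepsin S, a protease of antigen-presenting cells and microglia that also works at neutral pH. Its level was 1.07, 1.12, 1.34 and 1.67 in wild type at 1 month and 4.52, 4.10, 4.53 and 4.19 at 1 year. In mutants it was 1.76, 1.51, 1.70 and 1.51 and then 3.75, 3.81, 3.90 and 3.80. The ages do not come near overlapping in either genotype. The change was 3.03 ± 0.13 in wild type (8.18-fold, adjusted p = 3.18e-09) and 2.19 ± 0.13 in mutants (4.57-fold, adjusted p = 2.15e-07), and it was called on each slide alone.

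Ctsz encodes cathepsin Z, a carboxypeptidase. It was at 1.53, 1.88, 1.80 and 1.80 in wild type at 1 month and at 2.90, 2.57, 3.01 and 2.80 at 1 year (1.07 ± 0.11, 2.10-fold, adjusted p = 2.58e-05). Mutant arrays were at 2.37, 2.16, 2.27 and 2.02 and then at 2.83, 2.57, 2.77 and 2.89 (0.56 ± 0.11, adjusted p = 0.00839). Its group means at 1 month were 1.75 ± 0.16 in wild type and 2.20 ± 0.15 in mutants, and at 1 year 2.82 ± 0.19 and 2.76 ± 0.14 (SD, n = 4). Ctsh, cathepsin H, an aminopeptidase, was at 1.67, 2.23, 2.38 and 2.21 in young wild type and at 3.51, 2.94, 2.79 and 3.30 in old (1.01 ± 0.17, adjusted p = 0.00136). In mutants Ctsh was at 2.77, 2.56, 2.26 and 2.65 and then at 3.14, 3.31, 3.16 and 3.27 (0.66 ± 0.17, adjusted p = 0.0333). No young array reached an old one in either genotype.

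Ctsb, the abundant lysosomal protease cathepsin B, was at 4.56, 4.80, 4.86 and 5.07 in wild type at 1 month and at 5.44, 5.38, 5.54 and 5.38 at 1 year (0.61 ± 0.10, adjusted p = 0.000695). In mutants Ctsb was at 5.09, 4.90, 4.88 and 4.85 and then at 5.30, 5.33, 5.44 and 5.39 (0.44 ± 0.10, adjusted p = 0.0126). The ages again stood apart in both genotypes. Ctsc encodes cathepsin C, which activates the serine proteases of immune cells by trimming their ends. It was at -0.92, -0.42, -0.42 and -0.07 in wild type at 1 month and at 0.42, -0.11, -0.13 and 0.01 at 1 year (0.50 ± 0.15, adjusted p = 0.0464). The mutant arrays were at 0.23, -0.02, -0.05 and 0.08 and then at 0.05, 0.05, 0.08 and 0.01 (-0.02 ± 0.15, adjusted p = 0.97). Of the young wild-type arrays 1 reached into the old range, and the call was kept in 2 of 8 fits that left out 1 array, those without wild-type 1-month replicate 4 or 1-year replicate 3 (largest adjusted p = 0.156).

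Ctsf, cathepsin F, moved the other way. It was at 2.73, 2.85, 2.86 and 2.91 in young and at 2.21, 2.26, 2.35 and 2.29 in old wild type (-0.56 ± 0.09, adjusted p = 0.00127). In mutants it was at 2.95, 2.79, 2.87 and 2.44 and then at 2.26, 2.24, 2.38 and 2.34 (-0.46 ± 0.09, adjusted p = 0.00873). Young arrays were above old ones throughout, the nearest being mutant array 4. The other 4 cysteine cathepsins were not called with age: Ctsk (cathepsin K, the collagen-degrading protease of osteoclasts), Ctsl (cathepsin L), Ctso (cathepsin O) and Ctsw (a cathepsin of cytotoxic lymphocytes), with changes from -0.24 to 0.51 in wild type and from -0.36 to 0.18 in mutants. Without wild-type 1-month replicate 3, the lowest of its group for Ctso, Ctso was called lower in ageing wild type.

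Ctsd encodes cathepsin D, the main aspartic protease of lysosomes and important in the RPE. It was at 4.53, 4.82, 4.84 and 4.74 in wild type at 1 month and at 5.61, 5.26, 5.58 and 5.37 at 1 year (0.72 ± 0.10, adjusted p = 0.000169). In mutants it was at 5.19, 4.95, 4.94 and 5.03 and then at 5.34, 5.39, 5.42 and 5.47 (0.38 ± 0.10, adjusted p = 0.0297). Old arrays were above young ones in both genotypes, and a second probe gave 0.88 ± 0.15 in wild type and 0.32 ± 0.15 in mutants. Ctsa, the serine carboxypeptidase cathepsin A that also protects other lysosomal enzymes, changed by 0.15 ± 0.08 and 0.05 ± 0.08 (adjusted p = 0.241 and 0.749).

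Of the 5 other lysosomal genes 3 rose in wild type, against 7.31% of all genes. By limma none was called in mutants, against 6.7% of all genes in either direction, and 2 had an unadjusted p under 0.05. Hexa, the alpha subunit of beta-hexosaminidase, which degrades gangliosides, was at 1.37, 1.73, 1.63 and 1.61 in young and at 2.64, 2.37, 2.48 and 2.36 in old wild type (0.88 ± 0.10, adjusted p = 5.09e-05). Mutants had Hexa at 2.30, 1.99, 1.99 and 1.90 and then at 2.37, 2.22, 2.28 and 2.31 (0.24 ± 0.10, adjusted p = 0.182). Young wild-type arrays lay furthest from the rest. Npc2 encodes a lumenal protein that hands cholesterol on for export. It was at 1.88, 2.22, 2.23 and 2.21 and then at 2.90, 2.45, 2.68 and 2.78 in wild type (0.57 ± 0.10, adjusted p = 0.00246), and at 2.57, 2.31, 2.38 and 2.36 and then at 2.68, 2.64, 2.62 and 2.60 in mutants (0.23 ± 0.10, adjusted p = 0.229). Lamp1, a major glycoprotein of the lysosomal membrane, was at 5.0, 5.17, 5.17 and 5.36 and then at 5.55, 5.45, 5.43 and 5.48 in wild type (0.30 ± 0.08, adjusted p = 0.0322). In mutants Lamp1 was at 5.56, 5.40, 5.29 and 5.26 and then at 5.48, 5.46, 5.36 and 5.41 (0.05 ± 0.08, adjusted p = 0.777). The wild-type Lamp1 call was kept in 2 of 8 fits that left out 1 array, those without 1-month replicate 4 or 1-year replicate 3 (largest adjusted p = 0.0998). Lamp2, its partner in the membrane, changed by 0.36 ± 0.14 and 0.28 ± 0.14 (adjusted p = 0.112 and 0.261), and Tpp1, a tripeptidyl peptidase, by -0.25 ± 0.10 and -0.17 ± 0.10 (adjusted p = 0.123 and 0.353).

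**Figure D3:**
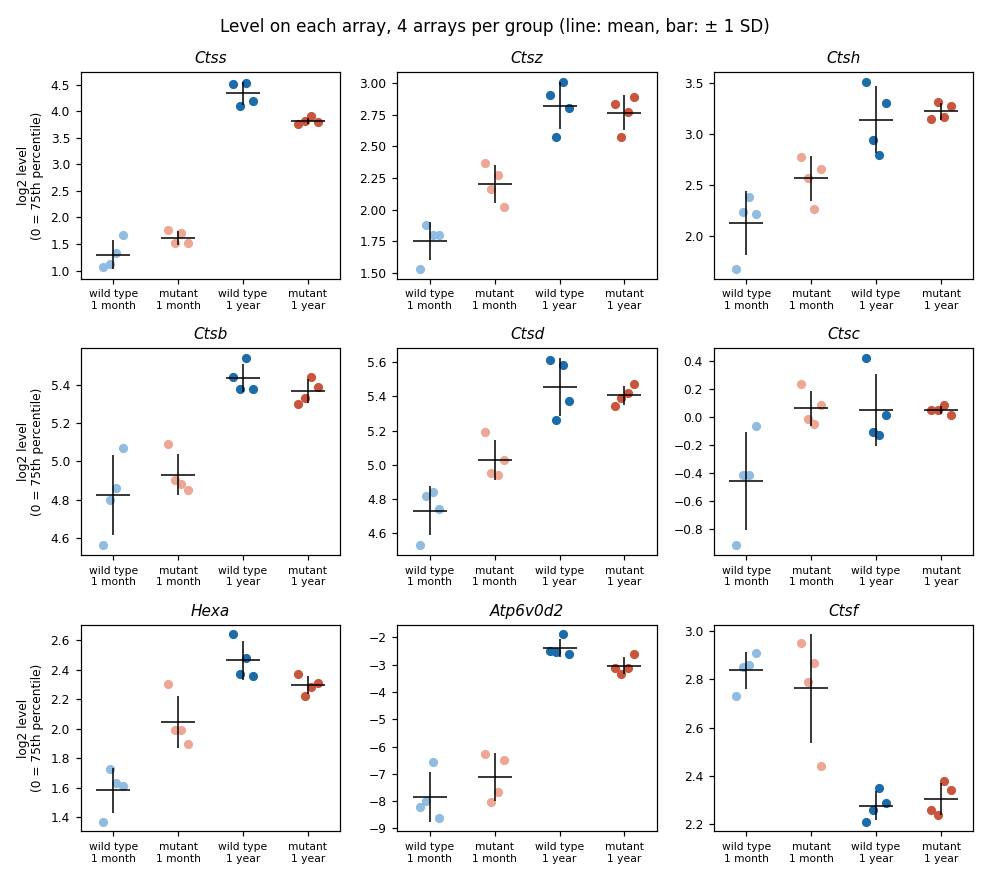
Log2 level on each array (points), with the mean (line) and 1 SD (bar) of the 4 arrays per group, for 9 genes: 8 that rose with age and Ctsf, which fell. Ctss and Atp6v0d2 are far higher at 1 year in both genotypes, while for Ctsz, Ctsc and Hexa the young wild-type arrays lie below the young mutant arrays.

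The wild-type count kept between 9 and 12 genes when 1 array was left out. The mutant count fell from 8 to 5 without mutant 1-month replicates 2 or 3 or 1-year replicates 2, 3 or 4, and reached 11 without 1-month replicate 4. Ctsd and Ctsh were lost in 5 and 6 of these 8 mutant fits (largest adjusted p = 0.0955 and 0.114). Ctss, Ctsz, Ctsb and Ctsf were called in all 8. Atp6v0d2 was too, but it passed the signal filter only through the 1-year groups, so its calls are no evidence of a difference between ages. Without the 3 arrays that did not match the male label, Ctss was the only call in mutants besides Atp6v0d2, and Ctsz was 0.55 there (adjusted p = 0.172).

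Markers of phagocytes and of other cell types moved with age alongside these genes. Their counts of calls stand against 7.31% of all genes higher and 5.05% lower in wild type, and 3.77% and 2.93% in mutants. All 14 microglia markers were tested and well above background on all 16 arrays; their array means ran from -0.37 to -0.24 in wild type at 1 month, 0.07 to 0.27 in mutants at 1 month, 0.60 to 1.08 in wild type at 1 year and 0.90 to 1.04 in mutants at 1 year. Of them 9 rose in wild type and 8 in mutants, Trem2 and Tyrobp, a receptor and its adaptor, by 2.41 each in wild type. Of the markers typical of resting microglia, P2ry12 changed by 0.40 ± 0.35 and Tmem119 by 0.45 ± 0.14 in wild type (adjusted p = 0.493 and 0.0504). The 9 macrophage markers tested (Ly6c2 was not matched to a probe) had array means of -2.37 to -2.14 and -2.03 to -1.75 at 1 month and -1.28 to -1.09 and -1.37 to -1.09 at 1 year, in wild type and mutants, with 5 higher and 1 lower in wild type and 3 higher in mutants. Of 5 markers of osteoclasts, the cells best known for Atp6v0d2, 1 rose in each genotype, the tartrate-resistant phosphatase Acp5, and the array means ran from -2.73 to -2.62 and -2.76 to -2.43 at 1 month and from -2.27 to -1.96 and -2.50 to -2.28 at 1 year. Of 5 dendritic cell markers tested (Xcr1 was not kept) 2 rose in each genotype, with array means of -3.11 to -2.77 in wild type and -2.75 to -2.26 in mutants at 1 month, and of -1.47 to -1.29 and -1.81 to -1.36 at 1 year. Of 6 neutrophil markers tested (Ly6g and Ngp were not) 3 rose in wild type, from array means of -3.23 to -2.56 to means of -2.20 to -1.24, and 0 were called in mutants, where 1 had an unadjusted p under 0.05. Melanin markers were called higher in 4 of 8 cases in wild type (1.53 to 2.25, then 2.47 to 2.98) and lower in 2 of 8 in mutants (2.33 to 2.94, then 1.96 to 2.47). RPE markers (9 of 10 tested, Best1 not kept) were called higher in 4 of 9 cases in wild type and in 0 of 9 in mutants, where 2 had an unadjusted p under 0.05. Lens markers went the other way in wild type, with array means of 5.26 to 5.88 at 1 month and -3.25 to 1.41 at 1 year. In mutants they ran from 1.90 to 6.89 and then from -1.11 to 5.24, so the samples differed in lens RNA. The part of these cell types in the changes of the lysosomal genes was not tested.

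Other genes of the pathway came from lists of 71 genes, of which 70 were tested. With age 24 rose and 2 fell in wild type, against 7.31% and 5.05% of all genes. In mutants 8 rose and 1 fell, against 3.77% and 2.93% of all genes. Among further V-ATPase subunits, Tcirg1, the osteoclast and macrophage form of subunit a, rose by 0.85 ± 0.11 and 0.58 ± 0.11 (adjusted p = 0.000103 and 0.00392), and Atp6v1g3 fell in wild type by 0.54. Of 32 further hydrolases and activators 10 rose and 1 fell in wild type, led by Acp5 (2.58 ± 0.23), Lipa (0.90 ± 0.15), Gusb (0.48 ± 0.08) and Pla2g15 (0.38 ± 0.08), and 3 rose, among them Acp5 (1.52 ± 0.23) and Gusb (0.41 ± 0.08), and 1 fell (Smpd1, by 0.48) in mutants. Of 17 further membrane proteins 7 rose in wild type and 3 in mutants, led by Laptm5 (2.21 ± 0.14 and 1.36 ± 0.14), a lysosomal protein of blood-derived cells. Of 10 sorting and transcription genes 3 rose in wild type (Mitf, Igf2r and Grn) and none in mutants, where 2 had an unadjusted p under 0.05. Tfeb itself changed by 0.24 ± 0.13 and 0.15 ± 0.13 (adjusted p = 0.239 and 0.536). Of 5 cystatins, which inhibit cysteine cathepsins, Cst6, Cstb and Cst7 rose in wild type and Cst7 in mutants. Acp5 also stands in the osteoclast marker list.

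Setting the age changes beside the promoter windows, 3 genes with CACGTG rose (Ctsd, Lamp1 and Atp6v0e) and 1 fell (Ctsf) among 9 in wild type. Among the 18 tested genes whose windows lack it, 5 rose (Ctss, Ctsz, Ctsc, Hexa and Npc2). The median change in wild type was 0.02 with and 0.06 without the motif. Of the 9 tested genes with no window listed, 3 rose in each genotype (Ctsb, Ctsh and Atp6v0d2, the last with the limit given above). These counts stand against 7.31% of all genes higher and 5.05% lower in wild type, and 3.77% and 2.93% in mutants. In mutants 1 of the 9 genes with CACGTG rose (Ctsd) and 2 fell (Ctsf and Atp6v0b), 2 of the 18 without it rose (Ctss and Ctsz), and the medians were 0.05 with and -0.07 without it.

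The second comparison set mutants against wild type at 1 month. Hexa was the only 1 of the 36 genes called, higher in mutants by 0.46 ± 0.10 (1.38-fold, adjusted p = 0.0254), against 2.03% of all genes called higher and 2.72% in either direction. Its 4 mutant values of 1.90 to 2.30 all lie above the 4 wild-type values of 1.37 to 1.73. In 4 further genes, Ctsz, Ctsc, Ctsd and Npc2, all mutant arrays were above all wild-type arrays, 5 of 36 in all, against 5.85% of all genes, and in none was the reverse true, against 2.68%. No gene was called lower, against 0.694% of all genes. Changes were positive in 30 of the 36 genes, with a median of 0.14, against 54% positive and a median of 0.02 over all genes. An unadjusted p under 0.05 was reached by 11 of 36, against 15.2% of all genes.

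**Figure D4:**
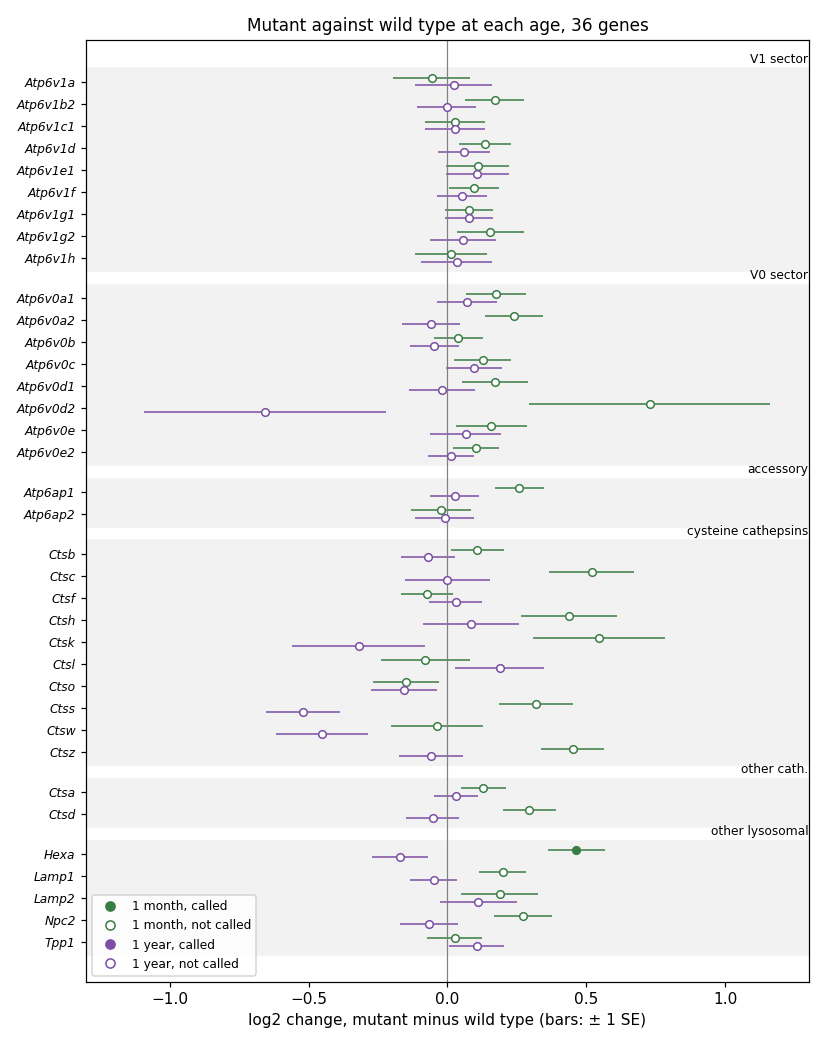
Log2 change of mutants against wild type for each of the 36 genes at 1 month (green) and 1 year (purple), 4 arrays per group, with bars of 1 standard error; filled points passed an adjusted p of 0.05. Only Hexa at 1 month is filled, and for Ctss, Ctsk and Hexa the 2 ages lie on opposite sides of 0, each by more than its bar. The 1-month point of Atp6v0d2 compares 2 groups below background and has no meaning.

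By role, the V1 changes at 1 month ran from -0.06 to 0.17 and the V0 changes from 0.04 to 0.73. The largest of the latter, Atp6v0d2, was below background in both groups and gives no difference, and the next was Atp6v0a2, an a subunit (0.24 ± 0.11, adjusted p = 0.294). Atp6ap1, an accessory subunit, was 0.26 ± 0.09 higher (adjusted p = 0.164), and was called without mutant 1-month replicate 4, the array low in V-ATPase genes. Ctsz was 0.45 ± 0.11 higher, just past the threshold (adjusted p = 0.0513), and was called with quantile normalization (adjusted p = 0.0341). Ctsc, Ctsd and Npc2 were higher by 0.52 ± 0.15, 0.29 ± 0.10 and 0.27 ± 0.10 (adjusted p = 0.105, 0.144 and 0.222). For Ctsc the closest arrays were mutant replicate 3 at -0.05 and wild-type replicate 4 at -0.07. For Ctsd the second probe, 0.45 ± 0.15, pointed the same way. Ctsk was 0.55 ± 0.24 higher with overlapping groups (adjusted p = 0.291), while Ctso, Ctsl, Ctsf and Ctsw were lower by values that did not pass the test.

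The Hexa call at 1 month was kept in 3 of 8 fits that left out 1 array, those lacking mutant array 4, wild-type array 2 or wild-type array 4. In the 5 other fits, which lacked mutant arrays 1, 2 or 3 or wild-type arrays 1 or 3, it was not called (largest adjusted p = 0.0848), and its change ran from 0.38 to 0.51 over all 8 fits. Without mutant replicate 4 there were 3 calls (Hexa, Ctsz and Atp6ap1), without wild-type replicate 4 there were 2 (Hexa and Ctsc), and without wild-type replicate 1, the array low in most of these genes, there were none. Without that array changes were positive in 28 of 36 genes, with a median of 0.09. Without the arrays that did not match the male label no gene was called, and Hexa was 0.52 higher (adjusted p = 0.146).

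Cell type markers differed between the genotypes at 1 month as well. The counts of calls in this paragraph stand against 2.03% of all genes called higher and 0.694% called lower. Of 9 RPE markers 5 were called higher in mutants, with array means of 2.67 to 3.10 against 2.16 to 2.60 in wild type, and of 8 melanin synthesis markers 5, with 2.33 to 2.94 against 1.53 to 2.25. Of 14 microglia markers 5 were called higher, with 0.07 to 0.27 against -0.37 to -0.24. Of 9 macrophage markers 4 were called higher, with means of -2.03 to -1.75 against -2.37 to -2.14. Of 7 fibroblast and matrix markers 3 were called higher, and their array means stood far apart, 3.28 to 3.46 in mutants against 1.84 to 2.48 in wild type. Of 5 dendritic cell markers 2 were called higher (-2.75 to -2.26 against -3.11 to -2.77), and of 6 neutrophil markers 2 (-2.54 to -1.32 against -3.23 to -2.56). Their part in the difference of Hexa and the cathepsins was not tested. Among the 70 other pathway genes 1 was higher, Laptm5 (0.86 ± 0.14, adjusted p = 0.0054), and 1 lower, Gaa (-1.28 ± 0.08, adjusted p = 1.12e-06), which encodes the lysosomal glucosidase that breaks down glycogen. Gaa was at 3.16, 3.06, 3.09 and 2.90 in mutants and at 4.23, 4.38, 4.33 and 4.40 in wild type at this age, far outside the spread of either group.

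At 1 year none of the 36 genes was called between mutants and wild type (limma), against 0.857% of all genes in either direction, 0.61% higher and 0.247% lower. An unadjusted p under 0.05 was reached by 2 of 36, Ctss and Ctsw, against 11.4% of all genes. Changes were positive in 19 of 36, against 47.2% of all genes, with a median of 0.02 against -0.01. The sign of this median was not stable: it was -0.01 without mutant 1-year replicate 1, with 15 of 36 positive. In 3 genes all mutant arrays were below all wild-type arrays, Ctss, Ctsw and Atp6v0d2, against 3.43% of all genes, and in 1 above, Atp6v1e1, against 4.39%.

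Ctss at 1 year was at 3.75, 3.81, 3.90 and 3.80 in mutants and at 4.52, 4.10, 4.53 and 4.19 in wild type, lower by 0.52 ± 0.13 (adjusted p = 0.0889). Every mutant array lies below every wild-type array. It was called with quantile normalization (adjusted p = 0.0355), with normexp background correction (0.0205) and with the authors' deposited values (0.0353). Ctsw was at -3.81, -3.11, -3.24 and -2.98 in mutants and at -2.92, -2.77, -2.67 and -2.98 in wild type (-0.45 ± 0.17, adjusted p = 0.285), the nearest arrays being apart by less than the rounding. At 1 month Ctsw had been at -3.13, -3.02, -2.91 and -2.83 and at -2.61, -2.85, -3.06 and -3.22, overlapping throughout. T and NK cell markers (9 of 10 tested, Klrb1c not kept) had array means of -2.86 to -2.44 in mutants and -2.46 to -2.43 in wild type at 1 year, with 0 of 9 called and 2 at an unadjusted p under 0.05, and their part in the Ctsw values was not tested.

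The probe used for Atp6v0d2 was lower in mutants at 1 year by 0.66 ± 0.43 (adjusted p = 0.636). Its nearest mutant and wild-type arrays were apart by less than the rounding. This gene's second probe varied less between arrays: it was at -4.41, -4.48, -4.60 and -4.14 in mutants and at -3.52, -3.73, -3.31 and -3.50 in wild type. With each probe on its own, that difference of -0.89 ± 0.15 was called (adjusted p = 0.0127 over 49230 probes, of which 0.396% were called). Both probes thus lay lower in mutants, and the call depended on the probe. The fit shares 1 estimate of the spread over the 4 groups, so the error of the probe used includes the 1-month arrays below background. Its SDs there were 0.87 in mutants and 0.91 in wild type, against 0.30 and 0.33 at 1 year. Atp6v1e1 was at 3.70, 3.74, 3.68 and 3.64 in mutants and at 3.63, 3.51, 3.63 and 3.56 in wild type, a difference of 0.11 ± 0.11 (adjusted p = 0.789) smaller than the spread between the young arrays, 3.42 to 3.94 in mutants and 3.41 to 3.90 in wild type. Of the pathway genes outside these 36, Cst7, a cystatin of activated microglia, was higher in mutants (1.09 ± 0.17, adjusted p = 0.00653) and Gaa lower (-1.39 ± 0.08, adjusted p = 3.38e-07), with no other of the 70 called.

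Whether the genotype difference itself changed between the ages was tested as an interaction. It was called for 0 of the 36 genes (limma), against 0.421% of all genes (0.142% higher and 0.279% lower), and 8 of 36 had an unadjusted p under 0.05, against 10.8% of all genes. The change was negative, that is less in favour of mutants at 1 year, in 29 of 36 genes (median -0.10), against 53.2% of all genes. Without wild-type 1-month replicate 1, or without mutant 1-month replicate 1, it was negative in 24 (median -0.06). With the sex pattern as a covariate the count was 25, and without replicate 4 of either 1-month group 33. The 29 include Atp6v0d2, below background at 1 month, and the genes share arrays, so they are not separate observations. The interaction was closest to the threshold for Ctss, -0.84 ± 0.19 (adjusted p = 0.0694), and Hexa, -0.63 ± 0.14 (adjusted p = 0.0714). For Ctss the genotype difference went from 0.32 ± 0.13 at 1 month to -0.52 ± 0.13 at 1 year, and for Hexa from 0.46 ± 0.10 to -0.17 ± 0.10. Both were called with quantile normalization (adjusted p = 0.0393 and 0.0461), with normexp (0.0343 and 0.0248) and with the deposited values (0.0391 and 0.0462). Ctss was also called without wild-type 1-month replicate 4 (0.0245) and Hexa without mutant 1-month replicate 4 (0.049). The interaction of Ctsz was -0.51 ± 0.16 (adjusted p = 0.214), of Ctsk -0.87 ± 0.34 (0.339), of Ctsc -0.52 ± 0.22 (0.386) and of Ctsd -0.35 ± 0.14 (0.339). The interaction of melanin markers was negative in 8 of 8, with 2 called, and of RPE markers in 9 of 9, with 0 called and 7 at an unadjusted p under 0.05. Such shifts were not confined to these lists. Neutrophil markers had means of -2.06 in mutants and -3.02 in wild type at 1 month, and of -2.27 and -1.66 at 1 year. Fibroblast and matrix markers had 3.36 and 2.28, then 2.55 and 2.61. Lens markers went the other way, with 4.33 and 5.49, then 1.89 and -0.29. The part of these cell types was not tested. The rises with age given above for wild type and the differences at 1 month share the young wild-type arrays, so the lower levels on these enter both.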

How the data were processed

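The 16 raw scanner files hold 1-colour fluorescence intensity, which Agilent Feature Extraction 11.0.1.1 had background-subtracted and detrended, per the file headers. A table of log2 values that the authors deposited served as an alternative. The members and the lists were chosen with earlier results of these data known.

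Processed intensities without outlier spots were log2 transformed, each array's 75th percentile was subtracted, and spots of a probe were averaged. A probe was kept (49230 were) if at least 4 of the 16 arrays had it well above background, and a gene was represented by its probe with the highest mean. Accessions were named through the RefSeq table. limma 3.58.1 (R 4.3.3) fitted 4 group means and 5 contrasts over 16 arrays, with Benjamini-Hochberg adjustment over 19022 genes and a two-sided threshold of 0.05. Errors of changes are standard errors and errors of means SDs. Levels on every array are given for genes called in any contrast and for genes whose genotypes do not overlap, and pathway genes by the smallest adjusted p. The values of 1 pathway gene are not reported here. The fit was tested on simulated data: of 50 genes raised by 1 on the log2 scale in mutants at 1 year, 40 were called. The number of arrays limits the precision. Arrays were on 2 slides, each with 2 of every group. Same-numbered arrays did not vary together (correlations of deviations from the group means -0.54 to 0.30 over 24 pairs), so numbers were not taken as pairs. Alternatives changed the normalization, filter, probe rule, slide, array row, arrays and sex pattern.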

Additional observations from a re-analysis of the deposited data

Results flagged for a closer look

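Of 144 sets of 4 arrays (36 genes in 4 groups), 8 had an array farther from the other 3 than Dixon's 95% limit allows, and chance passes about 1 in 20 sets. In mutants at 1 month, replicate 4 was the lowest for Atp6v1b2 (0.84, the others 1.22 to 1.26), Atp6v0d1 (2.57, the others 3.08 to 3.15), Atp6ap1 (1.83, the others 2.06 to 2.11) and Tpp1 (1.57, the others 1.82 to 1.86). In wild type at 1 month, Npc2 was lowest on replicate 1 (1.88, the others 2.21 to 2.23) and Ctso on replicate 3 (-1.61, the others -1.17 to -1.11). At 1 year, Ctsl was highest on mutant replicate 2 (5.32, the others 4.81 to 4.90) and Atp6v1f on wild-type replicate 3 (4.47, the others 4.30 to 4.31). Of the 8, 4 fell on the array that was lowest for 17 of 19 V-ATPase genes.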

How the results depend on the processing

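No gene called turned its direction under any alternative. The count at 1 month (1 gene) was 2 with quantile normalization, normexp, the authors' deposited values, probes well above background on all 16 arrays, the mean of a gene's probes, the slide as a block or array row as a covariate. It was 0 with every probe on its own, on slide 1 or 2 alone, with the replicate block, with only the 2 groups compared, and without the arrays not matching male sex or with that pattern as a covariate. At 1 year (0 genes) it was 1 with quantile normalization, normexp, the deposited values or every probe on its own. The difference between the effects (0 genes) had 2 calls with quantile normalization, normexp and the deposited values. With age, wild type (12 genes) had 2 calls on slide 1 and 7 on slide 2 alone. Mutants (8 genes) had 1 on either slide alone, 5 with every probe on its own, the replicate block or the sex pattern as a covariate, and 2 without the arrays not matching male sex. Slides alone and fits without arrays hold fewer samples; of the other changes, the cause was not tested.

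Leaving out 1 array gave 0 to 3 calls at 1 month, 0 at 1 year, 9 to 12 with age in wild type, 5 to 11 in mutants and 0 to 1 for the difference. The median change of the 36 genes moved by less than the SD between arrays (0.16) under every alternative run. That SD is larger than every one of the medians, so this does not show that they are stable, and those near 0 changed sign. At 1 month the median was 0.145, and 0.081 to 0.224 with 1 array left out. For the difference between the effects it was -0.098, and -0.188 to -0.061 with 1 array left out. With age in wild type it was 0.072, -0.006 to 0.119 with 1 array left out and -0.078 on slide 2. In mutants it was -0.041, -0.117 to 0.017 with 1 array left out and 0.043 on slide 1. At 1 year it was 0.018, -0.006 to 0.04 with 1 array left out, -0.014 on slide 1, -0.006 without the arrays not matching male sex and -0.015 with that pattern as a covariate. The replicate block also cost the calls of Atp6v0e, Ctsc and Lamp1 in wild type and of Atp6v0b, Ctsd and Ctsh in mutants. Dim probes limit what can be said of Ctse at any age and of Atp6v0d2 at 1 month.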
